A study of Homo sapiens with 4 samples.

Results

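The genes described here encode the enzymes of cholesterol and fatty acid synthesis that are known as targets of the sterol regulatory element-binding proteins (SREBPs), together with the SREBPs and a few of their regulators. A list of 38 genes was taken by symbol, and all 38 were found among the 29437 genes of the 4 deposited tables. They were divided into a sterol arm of 21 genes and a fatty acid arm of 17 genes. The cells were CAL27, an established line of human oral squamous cell carcinoma. Negative control cells (2 libraries) were compared with cells labelled as overexpressing CCL20, a secreted chemokine (2 libraries). Lentiviral delivery is named for CCL20, and the labels leave unsaid whether the control cells received an empty virus, or whether either line was 1 clone or a pool. All cells were grown in the same medium with serum, harvested after 48 hours, and sequenced as polyadenylated RNA. Separate cultures are not named for the replicates, so p-values measure only the spread between these libraries, which may be technical.

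SREBPs are made as precursors in the membrane of the endoplasmic reticulum, where the escort protein SCAP senses cholesterol and INSIG proteins hold the complex back. When membrane sterol is low, the complex moves to the Golgi, proteases release the N-terminal part, and this part enters the nucleus and switches on its targets. SREBP-2, encoded by SREBF2, acts mainly on genes of cholesterol synthesis, and the SREBP-1 forms, encoded by SREBF1, act more on genes of fatty acid synthesis. Tumour cells commonly use both arms to build membranes.

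The libraries held 13681862 to 17860695 counts. CCL20, the check of the labels, counted 188 and 202 reads in control replicates and 372 and 303 with overexpression, a log2 fold change of 0.95 (SE 0.21, edgeR adjusted p = 0.0143) that was 0.06 (edgeR adjusted p = 0.916) once mRNA length was corrected for. The 8 squamous epithelial markers summed to 693 to 723 FPKM (reads per kilobase of exon, scaled by the total count of the library) in the controls and 663 to 805 FPKM with overexpression. KRT5 made up most of this, at 439 and 467 FPKM in the controls and 362 and 521 with overexpression, while KRT14 was at 0.712 to 1.11 FPKM. The sum hides changes both ways: KRT17 and EPCAM rose (log2 fold changes 0.94 and 0.82) and TP63 and DSG3 fell (-0.65 and -0.83), all at an edgeR adjusted p under 0.05. None of these passed once mRNA length was corrected for. The 5 adipocyte markers, of which 2 had a value, stayed at or under 0.722 FPKM in sum in every library, and the 3 hepatocyte markers, of which 1 had a value, at or under 0.116 FPKM. The 5 leukocyte markers, of which 4 had a value, summed to 1.2 to 1.27 FPKM in the controls and 1.35 to 1.99 FPKM with overexpression. The 6 fibroblast markers summed to 4.72 to 5.58 and 2.93 to 3.51 FPKM, and the 4 endothelial markers, nearly all of it CDH5, to 8.23 to 8.81 and 5.10 to 5.27 FPKM. Within these lists PTPRC, COL3A1, DCN, PECAM1 and KDR had at most 2 counts in any library, while COL1A1 had 249 to 649, PDGFRB 67 to 156, COL1A2 72 to 108, CD14 27 to 55 and CDH5 485 to 881. Their part in the results was not tested. Across all coding genes the change between groups followed mRNA length, with short mRNAs higher and long mRNAs lower in the overexpression libraries. Each change below is therefore given on counts scaled by TMM factors (a scaling that sets the bulk of genes to no change) and again with a correction for mRNA length. The FPKM are scaled by total counts and the fold changes by TMM factors, which lie higher in the controls (1.08 and 1.07) than with overexpression (0.964 and 0.896), so a fold change is more positive than the ratio of the FPKM.

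Of the 38 genes, 36 passed the filter of a mean of 1 FPKM, and 12 of these changed, 6 higher and 6 lower with CCL20 overexpression (edgeR, adjusted p under 0.05). That is 33.3% of the members, against 32.2% of all 12168 genes tested. Without the first control library 0 members passed, and without the second 1 sterol member passed, in fits whose spread comes from the overexpression pair alone. In the sterol arm 6 of 20 tested members rose and 2 fell, against a background of 16.5% higher and 15.7% lower. The split of the sterol calls turned with the scaling, to 2 higher and 3 lower with total counts only and 1 higher and 4 lower on a TPM-like scale, and it was 2 and 2 with limma on log2 FPKM. In the fatty acid arm 0 of 16 rose and 4 fell, with 1 higher and 6 lower at an unadjusted p under 0.05, and 0 higher and 6 lower by DESeq2. Over all genes tested, 23.4% were higher and 22.6% lower at an unadjusted p under 0.05, and DESeq2 called 17.1% higher and 16.9% lower. On TMM-scaled counts the groups did not overlap in 15 sterol members, 11 higher and 4 lower, and in 12 fatty acid members, 2 higher and 10 lower, where 35.8% of all genes were separated in each direction.

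The arms differed in the median of their log2 fold changes, which was 0.36 in the sterol arm and -0.21 in the fatty acid arm, against 0.00 over all genes tested. The gap between the arms was 0.57, and it lay between 0.57 and 0.58 under the other scalings of the counts. Such a scaling shifts all genes of a library nearly alike, so it could hardly have moved the gap. The sign of the sterol median did depend on the scaling, at 0.15 with total counts only and -0.13 on a TPM-like scale, where the medians of all genes were -0.21 and -0.50. The fatty acid median was -0.42 and -0.72 under these scalings, and it was 0.01 with a correction for exonic length.

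Per library, the summed FPKM of the 21 sterol genes was 229 and 229.5 in the control replicates and 249 and 269 in the overexpression replicates. For the 17 fatty acid genes it was 251 and 249.6 in the controls and 188 and 188 with overexpression. The FPKM of all genes summed to 262182 and 267157 in the controls and 311013 and 336874 with overexpression. A higher sum is therefore not particular to the sterol arm. The ratio of the sterol to the fatty acid sum was 0.914 and 0.920 in the controls and 1.33 and 1.43 with overexpression, so both overexpression libraries lay above both controls. Without EBP the sterol sums were 198 and 194 in the controls and 196 and 196 with overexpression, which overlapped, and the ratios were 0.791 and 0.779 against 1.05 and 1.05. The median FPKM of the sterol genes went the other way from their sum, at 9.32 and 8.27 in the controls and 7.41 and 7.21 with overexpression.

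The members of the arms also differed in length. The tested sterol members had a median mRNA length of 2409.5 nt, the fatty acid members 4469 nt and all coding genes 2997.5 nt. Across the 36 members, which share the same 4 libraries, Spearman's rho between mRNA length and log2 fold change was -0.73, and it was -0.73 over the 10571 coding genes. Within the arms it was -0.52 over 20 sterol and -0.74 over 16 fatty acid members. The mRNA length correction was fitted to these same libraries and takes out any group difference that goes with length. Because the arms differ in length, a smaller gap was largely built in, and it does not tell the source of the gap. With the mRNA length correction the arm medians were 0.09 and -0.02, the gap was 0.11, and 2 members were past the threshold, IDI1 and ACAT2, both higher, against 6.82% of coding genes (edgeR), 3.63% higher and 3.19% lower. In that fit 0 of 16 fatty acid members were past it, with 1 higher and 1 lower at an unadjusted p under 0.05, against 13% and 10.6% of coding genes. When gene span and GC content were corrected for as well, the gap was 0.059, with 4 sterol members higher and 2 lower and 1 fatty acid member each way, against 25% of coding genes.

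**Figure D1:**
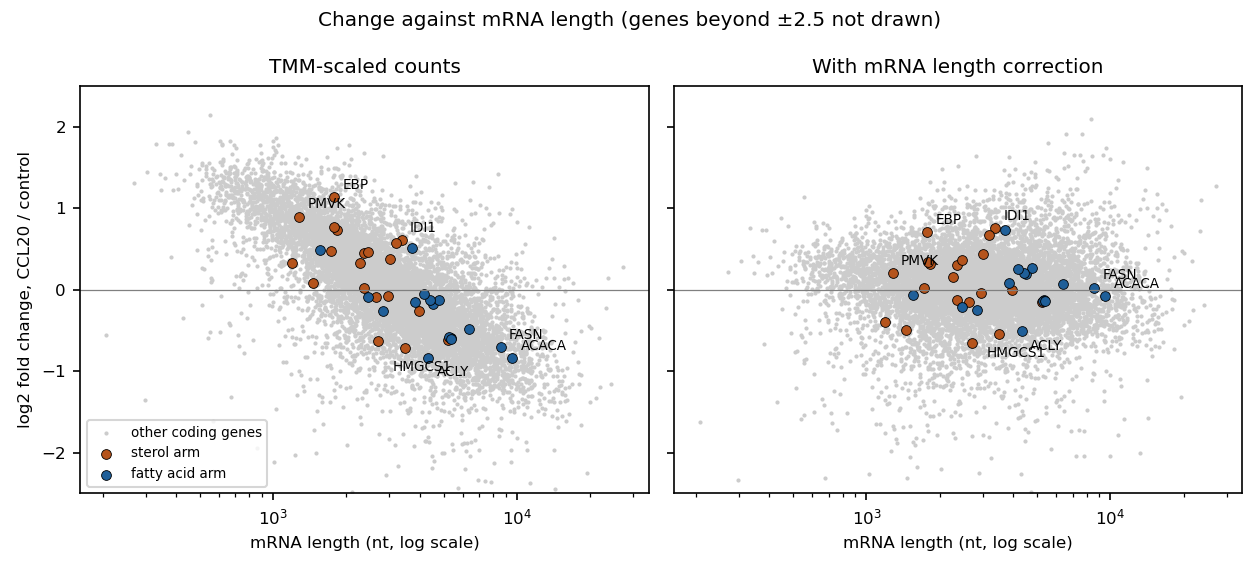
The log2 fold change of each coding gene (vertical axis, CCL20 overexpression over control) is plotted against the length of its mRNA (horizontal axis, nt, log scale), with TMM-scaled counts on the left and with the mRNA length correction on the right; grey points are the other coding genes, brown the sterol arm and blue the fatty acid arm. On the left the members lie within the downward band of all genes, and on the right both arms centre near 0, at medians of 0.09 and -0.02. The correction was fitted to these same libraries, so the loss of the trend on the right was built in.

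The size of the arm shift in each library was read as the median deviation of the members from their own mean over the 4 libraries, in log2 CPM. For the sterol arm it was -0.14 and -0.18 in the controls and 0.19 and 0.17 with overexpression. For the fatty acid arm it was 0.15 and 0.14 in the controls and -0.11 and -0.21 with overexpression. The groups were apart in both arms. With the mRNA length correction the sterol values were 0.03 and -0.08 in the controls and 0.03 and 0.18 with overexpression, and the fatty acid values were -0.01 and 0.06 against -0.05 and 0.01. A control and an overexpression library then stood together at 0.03 in the sterol arm, and the fatty acid groups overlapped.

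**Figure D2:**
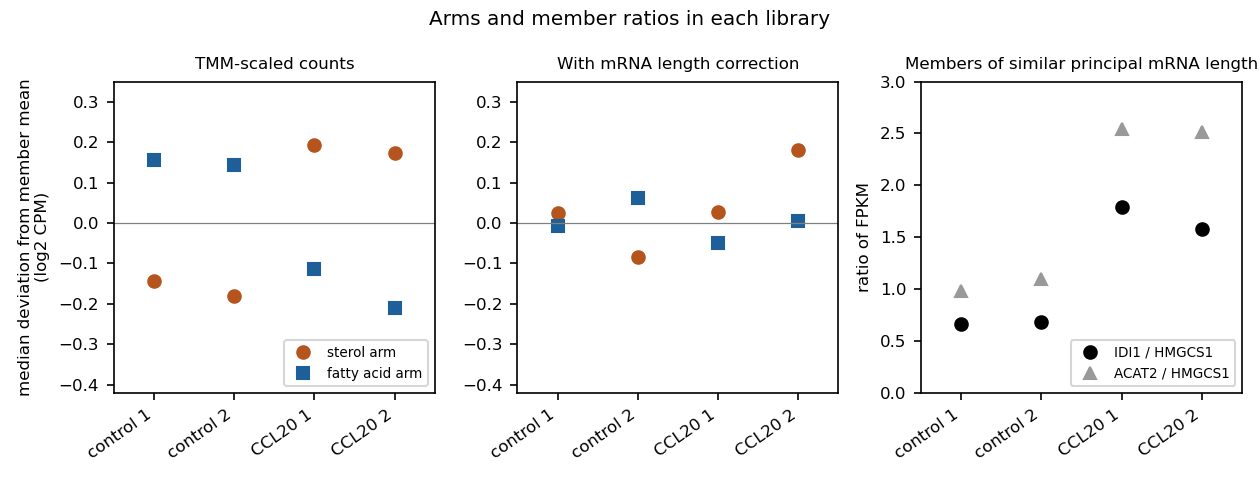
The left and middle panels plot, for each library, the median deviation of the tested members of each arm from their own mean (log2 CPM), without and with the mRNA length correction; the right panel plots the ratio of FPKM of IDI1 or ACAT2 to HMGCS1. On TMM-scaled counts the arms change places between groups, with the correction the 4 libraries lie between -0.08 and 0.18, and both ratios are above their control values in both overexpression libraries.

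The sterol arm starts from acetyl-CoA. ACAT2, the cytosolic thiolase that joins acetyl-CoA units (ENSG00000120437; GRCh38 chromosome 6, 159760328 to 159779055, plus strand), was at 9.66 and 9.91 FPKM in the controls and 13.6 and 11.7 FPKM with overexpression. Both overexpression libraries were above both controls. It rose 1.48-fold (log2 value, the log2 fold change, 0.57, SE 0.16, edgeR adjusted p = 0.0324) and passed after correction for the length of its mRNA too (0.67, edgeR adjusted p = 0.0437). Of the exons of ACAT2, 1458 nt (33.9%) are shared with SOD2-OT1, 1141 nt (26.5%) with a gene named SOD2 and 397 nt (9.23%) with TCP1, all on the opposite strand. That SOD2 gene had at most 6 counts in a library, and SOD2-OT1 was not analysed here. TCP1, a chaperonin subunit, was at 119 and 121 FPKM in the controls and 157 and 121 with overexpression (log2 fold change 0.41, edgeR adjusted p = 0.0863). The strand setting of the counting is not given in the sources used here, and the part of reads from these genes in the value of ACAT2 was not tested. IDI1 shares 643 nt with the antisense gene IDI2-AS1.

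HMGCS1, the synthase that makes HMG-CoA (ENSG00000112972; GRCh38 chromosome 5, 43289395 to 43313512, minus strand), went the other way. It was at 9.87 and 9.0 FPKM in the controls and 5.33 and 4.65 FPKM with overexpression, with no overlap. It fell 1.64-fold (log2 value -0.72, SE 0.18, edgeR adjusted p = 0.0189). With the mRNA length correction its log2 fold change was -0.55, and the call ended (edgeR adjusted p = 0.0891), while with length, span and GC it was -0.61 (edgeR adjusted p = 0.00963). Its sign was negative in all 20 alternative fits, and it was past the threshold in 16. These fits reuse the same libraries, so they are not independent of each other. The call of HMGCS1 also ended when either control library was left out.

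Of the kinases and the decarboxylase that turn mevalonate into isopentenyl diphosphate, 2 of 3 rose before the length correction. PMVK, phosphomevalonate kinase, was at 11.1 and 9.84 FPKM in the controls and 14.6 and 19.0 FPKM with overexpression, and rose 1.86-fold (log2 value 0.90, SE 0.23, edgeR adjusted p = 0.0205). MVD, the decarboxylase, was at 6.09 and 6.71 FPKM in the controls and 7.41 and 10.8 FPKM with overexpression, and rose 1.66-fold (log2 value 0.73, SE 0.24, edgeR adjusted p = 0.0483). In both genes the overexpression libraries were above the controls and further apart from each other than the controls were. PMVK has an mRNA of 1280 nt and MVD of 1823 nt, and with the mRNA length correction their log2 fold changes were 0.20 and 0.32 (edgeR adjusted p = 0.594 and 0.404). MVK, mevalonate kinase, was at 3.38 ± 0.00995 and 4.0 ± 0.431 FPKM (SD, n = 2 each) and did not pass (log2 fold change 0.46, edgeR adjusted p = 0.104).

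IDI1, the isomerase that makes dimethylallyl diphosphate (ENSG00000067064; GRCh38 chromosome 10, 1039152 to 1049170, minus strand), was at 6.54 and 6.15 FPKM in the controls and 9.53 and 7.34 FPKM with overexpression. The groups did not overlap. It rose 1.53-fold (log2 value 0.61, SE 0.19, edgeR adjusted p = 0.0384). Its corrected value was 0.75 (SE 0.17, edgeR adjusted p = 0.0432), the largest corrected value among the members. FDPS, which makes farnesyl diphosphate, was at 4.78 ± 0.280 FPKM in the controls and 4.41 ± 0.966 with overexpression (SD, n = 2 each; log2 fold change 0.08, edgeR adjusted p = 0.769).

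The corrected calls of IDI1 and ACAT2 rested on the transcript taken to stand for each gene. The annotated principal transcripts are of 3370 nt for IDI1 and 3180 nt for ACAT2, while a shorter transcript of IDI1 has 2301 nt and that of ACAT2, annotated without a coding sequence, 1641 nt. With the shorter transcripts the corrected log2 fold change of IDI1 was 0.44 (SE 0.19, edgeR adjusted p = 0.198) and that of ACAT2 was 0.08 (SE 0.17, edgeR adjusted p = 0.817). The tables used here give counts per gene. Both calls, as made on TMM-scaled counts, also ended with total counts only, on a TPM-like scale, with a filter of 5 FPKM, with limma, with a correction for exonic length and without either control library.

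A ratio of members within a library does not depend on how the library is scaled. The pairs below were chosen after the values were seen, as a member that rose and a member that fell with mRNA lengths within 10% of each other. The ratio of IDI1 to HMGCS1 FPKM was 0.663 and 0.683 in the controls and 1.79 and 1.58 with overexpression, 2.5-fold apart in the means. That of ACAT2 to HMGCS1 was 0.978 and 1.10 in the controls and 2.54 and 2.51 with overexpression, 2.43-fold apart. The choice of the pairs fixed the direction of these ratios, so they are given as a description with no test. The principal transcripts differ from that of HMGCS1 by 3.33% in length for IDI1 and 8.78% for ACAT2, and the shorter transcripts of both genes do not meet the 10% limit.

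In the middle of the pathway no member passed. FDFT1, squalene synthase, was at 28.2 and 29.4 FPKM in the controls and 37.2 and 32.0 with overexpression, just short of the threshold (log2 fold change 0.47, SE 0.16, edgeR adjusted p = 0.0529). SQLE, squalene epoxidase, often described as rate-limiting, was at 12.5 and 11.5 FPKM in the controls and 12.4 and 7.45 with overexpression. In FPKM 1 overexpression library thus lay within the controls, while on TMM-scaled counts 1 lay above and 1 below them. LSS, which closes the rings to make lanosterol, was at 9.51 ± 0.263 and 6.83 ± 0.540 FPKM (SD, n = 2 each; log2 fold change -0.27, edgeR adjusted p = 0.255). At an unadjusted p under 0.05 these steps counted 1 higher and 0 lower, and by DESeq2 FDFT1 was also the member that passed.

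Among the steps from lanosterol to cholesterol, 2 of 7 tested members rose and 0 fell (edgeR, the same at an unadjusted p under 0.05; DESeq2 also called 0 lower). EBP, the sterol isomerase that moves an unsaturated bond in the ring (ENSG00000147155; GRCh38 chromosome X, 48521158 to 48528716, plus strand), had the highest mean FPKM of the sterol arm over the 4 libraries, although DHCR7 was above it in the first control. It was at 31.1 and 35 FPKM in the controls and 52.9 and 72.6 FPKM with overexpression, or 2.20-fold more (log2 value 1.14, SE 0.22, edgeR adjusted p = 0.00822). This was the largest change among the 36 members that passed the filter, on TMM-scaled counts. With the mRNA length correction it was 0.70 (SE 0.19, edgeR adjusted p = 0.0645), and with length, span and GC 0.67 (edgeR adjusted p = 0.00778). EBP was past the threshold in 17 of 20 alternative fits, which reuse the same libraries, and positive in all 20. Its call ended with the mRNA length correction and when the first control library was left out.

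NSDHL, which removes a carboxyl group from the sterol ring, was at 10.9 and 12.5 FPKM in the controls and 15.7 and 18.8 FPKM with overexpression. It rose 1.71-fold (log2 value 0.77, SE 0.20, edgeR adjusted p = 0.0240), and its corrected value was 0.34 (edgeR adjusted p = 0.291). EBP and NSDHL have mRNAs of 1775 and 1779.5 nt, so the length correction took a similar amount from each. DHCR7, the reductase of the last step, was at 31.7 and 31.0 FPKM in the controls and 19.2 and 31.4 FPKM with overexpression. Its overexpression replicates stood far apart. In FPKM 1 lay below and 1 within the controls, and on TMM-scaled counts 1 lay below and 1 above them. The log2 fold change of DHCR7 was -0.09 (edgeR adjusted p = 0.801), and it was 0.25 without the first overexpression replicate and -0.55 without the second. MSMO1, SC5D, TM7SF2 and HSD17B7, which act between lanosterol and the last step, had log2 fold changes of 0.02 to 0.48 and did not pass. On TMM-scaled counts the groups overlapped in MSMO1 and SC5D, and in FPKM they overlapped in TM7SF2 and HSD17B7 as well.

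**Figure D3:**
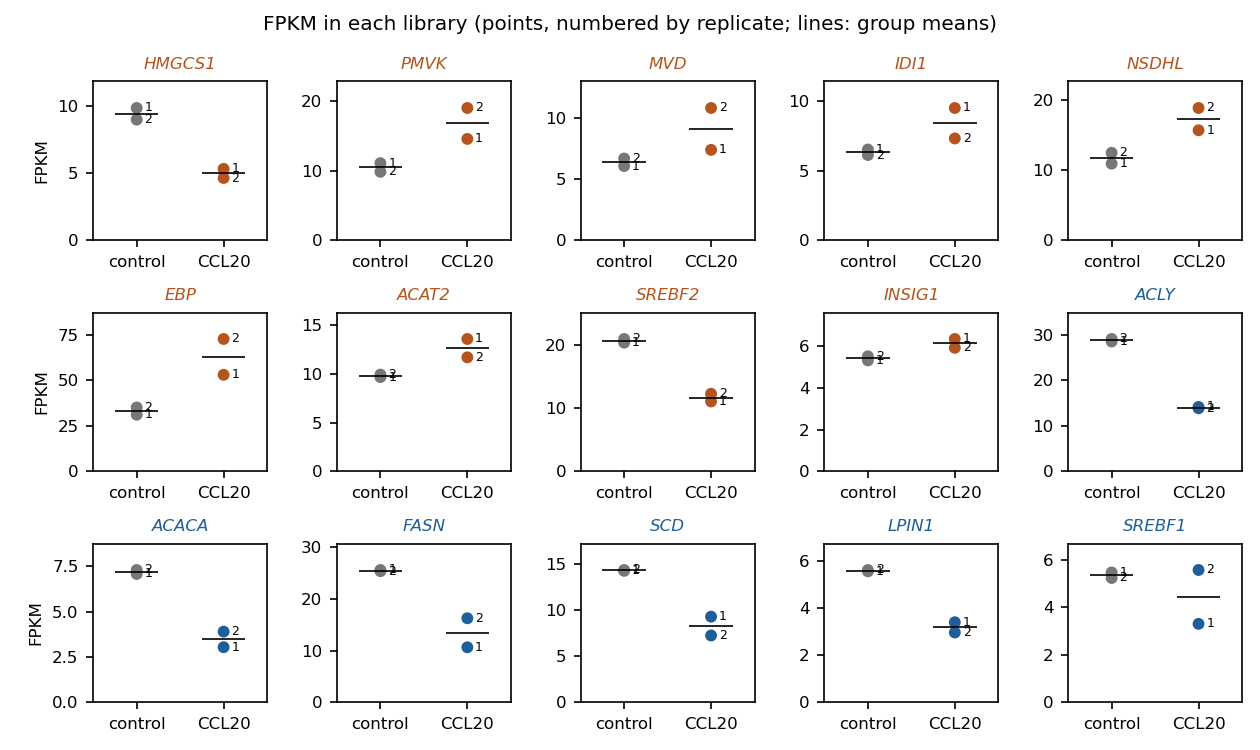
FPKM of 15 members in each library (vertical axes from 0; points numbered by replicate, lines the group means; grey control, brown sterol arm and blue fatty acid arm with CCL20 overexpression). HMGCS1, SREBF2, ACLY, ACACA, FASN, SCD and LPIN1 are lower and PMVK, MVD, IDI1, NSDHL, EBP, ACAT2 and INSIG1 higher in both overexpression libraries, while the overexpression values of SREBF1 lie on both sides of the controls.

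The regulators did not move as a group. SREBF2, the gene of SREBP-2 (ENSG00000198911; GRCh38 chromosome 22, 41833079 to 41907308, plus strand), was at 20.4 and 21.0 FPKM in the controls and 11.1 and 12.3 FPKM with overexpression, and fell 1.53-fold (log2 value -0.61, SE 0.17, edgeR adjusted p = 0.0277). Its mRNA has 5240 nt, and with the mRNA length correction its log2 fold change was -0.16 (edgeR adjusted p = 0.641). SREBF1 was at 5.46 and 5.23 FPKM in the controls and 3.30 and 5.57 FPKM with overexpression, where the replicates fell on both sides of the controls (log2 fold change -0.05, SE 0.27, edgeR adjusted p = 0.899). Its value was 0.31 without the first overexpression library and -0.54 without the second. INSIG1, which retains the SREBP complex and is itself an SREBP target, was at 5.33 and 5.52 FPKM in the controls and 6.35 and 5.93 with overexpression (log2 fold change 0.38, SE 0.18, edgeR adjusted p = 0.133). STARD4, a cytosolic carrier of cholesterol, was at 7.02 and 6.08 FPKM in the controls and 4.73 and 2.66 with overexpression, and did not pass (log2 fold change -0.63, edgeR adjusted p = 0.0881; corrected -0.65, edgeR adjusted p = 0.169; with length, span and GC -0.76, edgeR adjusted p = 0.00779).

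Promoters are shown for SREBF2 and HMGCS1, which fell, and EBP, which rose, to set the letters of SREBP target promoters beside changes in both directions. The sequences are from RefSeq (GRCh38.p14), 300 nt each, reaching from 250 nt before to 50 nt after the RefSeq start. That start lies 26 nt after the GENCODE gene start given above for SREBF2, 100 nt after it for HMGCS1 and 650 nt after it for EBP, so the EBP window lies within the GENCODE gene. Capitals mark the CCAAT box (CCAAT on either strand), which binds NF-Y, a partner of SREBPs, and in SREBF2 also the classical sterol regulatory element, which is the first run of capitals there.
SREBF2 (chr22:41832855-41833154, plus strand): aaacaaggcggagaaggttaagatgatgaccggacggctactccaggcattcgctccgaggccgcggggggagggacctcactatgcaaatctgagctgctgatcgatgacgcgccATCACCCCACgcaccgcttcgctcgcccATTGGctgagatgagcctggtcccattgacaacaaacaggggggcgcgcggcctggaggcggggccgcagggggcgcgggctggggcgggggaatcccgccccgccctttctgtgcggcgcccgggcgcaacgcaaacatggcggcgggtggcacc
HMGCS1 (chr5:43313363-43313662, minus strand): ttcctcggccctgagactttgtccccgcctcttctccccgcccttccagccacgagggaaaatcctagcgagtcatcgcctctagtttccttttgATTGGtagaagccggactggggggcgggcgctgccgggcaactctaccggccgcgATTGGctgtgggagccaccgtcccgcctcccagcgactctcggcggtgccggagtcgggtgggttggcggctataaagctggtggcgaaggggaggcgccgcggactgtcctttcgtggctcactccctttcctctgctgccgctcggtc
EBP (chrX:48521558-48521857, plus strand): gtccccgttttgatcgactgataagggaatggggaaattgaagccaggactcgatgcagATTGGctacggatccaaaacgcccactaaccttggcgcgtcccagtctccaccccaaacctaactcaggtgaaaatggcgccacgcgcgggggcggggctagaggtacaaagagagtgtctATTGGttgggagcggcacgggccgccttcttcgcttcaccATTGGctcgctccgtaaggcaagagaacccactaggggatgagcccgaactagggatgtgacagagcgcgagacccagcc
The CCAAT box was found in 1 copy in SREBF2, 2 in HMGCS1 and 3 in EBP. Promoters were matched for 32 of the 38 members, 18 sterol and 14 fatty acid. None was matched for FDFT1, SQLE, ACAT2, FASN, DGAT1 and DGAT2, so these were not searched. The CCAAT box was in 15 of the 18 sterol and 6 of the 14 fatty acid promoters, against 35.7% of all 27305 promoters and 37.1% of those of tested genes. The GC box (GGGCGG, either strand), a site of the factor Sp1, was in 17 and 12, against 44.6% of all promoters and 72.2% of those of tested genes. The classical element was searched on either strand with any base at the sixth position. It was in SREBF2 alone among the 32 members searched, against 0.154% of all promoters and 0.0917% of those of tested genes. The E-box CACGTG was in 3 sterol and 1 fatty acid promoters, 12.5% of the 32, against 7.43% of all promoters and 10.4% of those of tested genes. These are matches of letters in a short window, and the files hold no measure of binding.

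The fatty acid arm opens with ACLY, the ATP-citrate lyase that supplies cytosolic acetyl-CoA to both arms (ENSG00000131473; GRCh38 chromosome 17, 41866908 to 41930542, minus strand). It was at 28.6 and 29.1 FPKM in the controls and 14.2 and 13.9 FPKM with overexpression, with both replicates of each group close together. It fell 1.78-fold (log2 value -0.83, SE 0.16, edgeR adjusted p = 0.00828). With the mRNA length correction it was at -0.51 (SE 0.15), the largest negative value of the arm, and the call ended (edgeR adjusted p = 0.0894), while with length, span and GC it was -0.43 (edgeR adjusted p = 0.0109). It was negative in all 20 alternative fits and past the threshold in 16, as HMGCS1 was. Its call also ended when either control library was left out.

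The enzymes that build palmitate have the longest mRNAs of the list. ACACA, the acetyl-CoA carboxylase that makes malonyl-CoA, was at 7.07 and 7.29 FPKM in the controls and 3.04 and 3.90 FPKM with overexpression, and fell 1.79-fold (log2 value -0.84, SE 0.20, edgeR adjusted p = 0.0162). FASN, fatty acid synthase, was at 25.6 and 25.4 FPKM in the controls and 10.7 and 16.3 FPKM with overexpression, with no overlap, and did not pass (log2 fold change -0.70, SE 0.24, edgeR adjusted p = 0.0517). Their mRNAs have 9554 and 8565 nt, and with the mRNA length correction the log2 fold changes were -0.08 and 0.02 (edgeR adjusted p = 0.868 and 0.972). FASN passed with DESeq2 and in 10 other alternative fits.

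SCD, the stearoyl-CoA desaturase that makes oleate, was at 14.2 and 14.3 FPKM in the controls and 9.28 and 7.24 FPKM with overexpression, and fell 1.51-fold (log2 value -0.59, SE 0.17, edgeR adjusted p = 0.0328; corrected -0.13, edgeR adjusted p = 0.660). FADS1, a desaturase of polyunsaturated fatty acids, was at 6.75 ± 0.152 and 5.18 ± 0.522 FPKM (SD, n = 2 each; log2 fold change -0.17, edgeR adjusted p = 0.470). ELOVL5 and ELOVL1, elongases, had the highest FPKM of the arm, and neither passed. ELOVL5, which lengthens polyunsaturated chains, was at 54.3 and 52.6 FPKM in the controls and 45.1 and 32.8 with overexpression (log2 fold change -0.26, edgeR adjusted p = 0.285). ELOVL1, the elongase of very long saturated chains, was at 37.3 and 38.9 FPKM in the controls and 38.7 and 53.3 with overexpression (log2 fold change 0.49, edgeR adjusted p = 0.108). ELOVL6, which lengthens palmitate, lay between 2.58 and 3.90 FPKM, and its groups overlapped on TMM-scaled counts. The elongases counted 1 higher and 0 lower at an unadjusted p under 0.05 (edgeR), and 0 passed by DESeq2.

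Of the genes that activate fatty acids and make glycerolipids, LPIN1, a phosphatidate phosphatase, passed. It was at 5.55 and 5.60 FPKM in the controls and 3.39 and 2.96 FPKM with overexpression, and fell 1.53-fold (log2 value -0.61, SE 0.16, edgeR adjusted p = 0.0247; corrected -0.14, edgeR adjusted p = 0.626). ACSL4, which activates polyunsaturated fatty acids, was at 20.8 and 20.0 FPKM in the controls and 15.0 and 8.84 with overexpression, and did not pass (log2 fold change -0.58, edgeR adjusted p = 0.0809), although it passed in 8 of 20 alternative fits, DESeq2 among them (adjusted p = 0.0462). ACSL1 and ACSL3, of the same family of acyl-CoA synthetases, were at -0.15 and -0.13 on the log2 scale (edgeR adjusted p = 0.530 and 0.599). GPAM, the mitochondrial acyltransferase of glycerol-phosphate, was at -0.48 (edgeR adjusted p = 0.118). DGAT1 and DGAT2, unrelated enzymes that complete triglyceride, were at 0.51 and -0.09 (edgeR adjusted p = 0.126 and 0.803), and DGAT1 was past the threshold with the correction for length, span and GC (0.57, edgeR adjusted p = 0.0107).

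**Figure D4:**
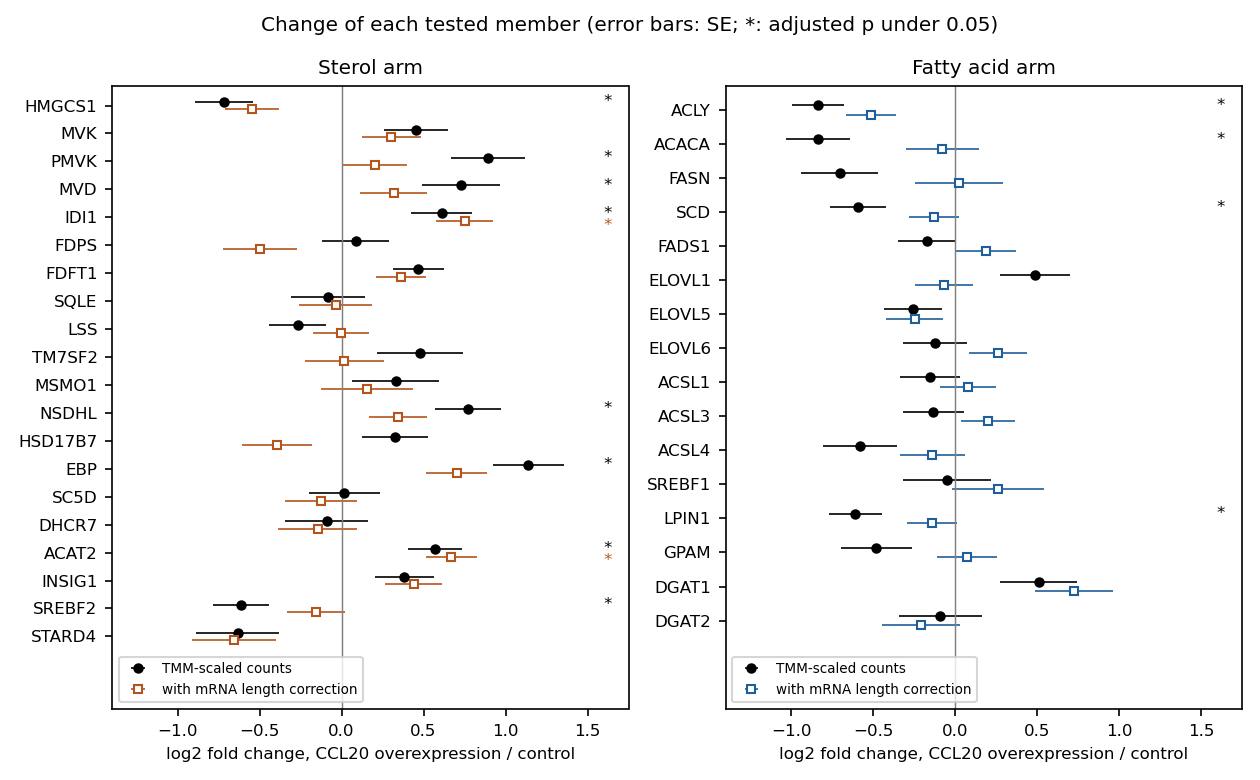
The log2 fold change of each tested member (horizontal axis, CCL20 overexpression over control; bars are SE) is plotted for the sterol arm (20 genes) and the fatty acid arm (16 genes), on TMM-scaled counts (filled circles) and with the mRNA length correction (open squares); asterisks mark an edgeR adjusted p under 0.05. With the correction 10 of the 12 calls end, and IDI1 and ACAT2 are past the threshold.

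All 12 members that changed on TMM-scaled counts had the same sign with the mRNA length correction, 10 of them with a smaller value. With the correction for length, span and GC, 5 of the 12 were past the threshold: HMGCS1, IDI1, EBP, ACAT2 and ACLY. CYP51A1 and FADS2 were under the filter. CYP51A1, the lanosterol demethylase, had 28 and 24 counts in the controls and 2 and 4 with overexpression, and without a filter its log2 fold change was -2.87 (SE 0.73, edgeR adjusted p = 0.00109). The annotation places a second coding gene, AC000120.2, on the same strand over 2844 of the 3584 exonic nt of CYP51A1. The part of this overlap in its count was not tested. FADS2, the other desaturase of polyunsaturated fatty acids, had 141 and 167 counts in the controls and 73 and 120 with overexpression (log2 fold change without a filter -0.46, edgeR adjusted p = 0.297).

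Other listed genes of sterol and fatty acid metabolism numbered 97, of which 20 belong to fatty acid oxidation and not to synthesis. Of the 97, 84 were tested and 9 rose and 6 fell, 17.9% in all against 32.2% of all genes. With the mRNA length correction 0 were higher and 1 lower (edgeR, with 10 higher and 3 lower at an unadjusted p under 0.05). Of 13 genes of SREBP processing and sterol sensing, 1 rose and 2 fell. Among these, MYLIP, a ubiquitin ligase that marks lipoprotein receptors for breakdown, was the gene past the threshold both ways. It was at 4.87 and 5.76 FPKM in the controls and 3.11 and 2.74 with overexpression, and fell 1.58-fold (log2 value -0.66, SE 0.21, edgeR adjusted p = 0.0445). Its corrected value was -1.14 (SE 0.21, edgeR adjusted p = 0.0205). Of 9 tested genes of sterol transport and esterification 1 rose and 1 fell, and of 6 genes of late sterol steps and electron donors 1 rose and 1 fell. Of 9 genes of the isoprenoid branches 0 passed (edgeR; 1 higher and 0 lower at an unadjusted p under 0.05, and 0 by DESeq2). Of 19 tested other genes of fatty acid synthesis and elongation 2 rose and 0 fell, of 12 of glycerolipid synthesis 1 rose and 1 fell, and of 16 of fatty acid oxidation 3 rose and 1 fell.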

How the data were processed

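RNA from 2 control and 2 CCL20 overexpression libraries of CAL27 cells was sequenced. Per the submitters' processing notes, reads were aligned with HISAT2 to GRCh38 and counted with HTSeq 0.13.5. The authors deposited whole-number counts per gene and FPKM for each library, and the deposited FPKM gave, for all 29437 genes, a gene length that was whole within 0.0001 nt and that equalled the exonic length in GENCODE 29 for 99.7% of genes. The sources used here do not give the strand setting or annotation version. Groups were taken from the labels.

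The counts were tested with edgeR 4.0.16 (quasi-likelihood, TMM factors, Benjamini-Hochberg adjustment, threshold 0.05) over the 12168 genes with a mean of at least 1 FPKM. Correction for mRNA length used the median length of the annotated principal transcripts of each of 10571 coding genes to set offsets in edgeR. The offsets came from a smooth curve fitted, in each of these same libraries, to the deviation of the genes from their mean against length. Any difference between the groups that goes with length is therefore taken out, whatever its source. Alternatives were DESeq2 1.42.0, limma 3.58.1 on log2(FPKM + 0.1, 0.5 or 1), other scalings, filters and corrections, a replicate block and fits without each library in turn. Replicates of a group differed by more than sampling noise (chi-square per gene 6.45 in the controls and 38.0 with overexpression). Simulated counts of 12168 genes were tested the same way: edgeR found 67% of 2-fold and 97% of the 4-fold changes, and 4.1% of its calls were false. The simulation gave all genes and both groups the same spread and held no length trend. Its rates therefore cannot be carried over to the real libraries.

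The members, lists and tests were chosen with earlier results of these data known. Every member is named. Values in every library are given for those past the threshold, the 3 with the highest FPKM of each arm, and SREBF1, SREBF2 and INSIG1. Of the other listed genes, those past the threshold with and without the length correction are named. A few further genes are named with values that this rule did not ask for, and they were chosen after their values were seen.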

Additional observations from a re-analysis of the deposited data

How the results depend on the processing

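Of the 3915 genes called and the 8 sterol and 4 fatty acid members among them, the correction for mRNA length left 721, 2 and 0, that with other transcripts of IDI1 and ACAT2 719, 0 and 0, that for exonic length 1932, 4 and 1, and a threshold of 0.01 left 1320, 1 and 1. The gap between the arm medians, 0.57, was then 0.11, 0.070 and 0.17 under the 3 corrections. With length, span and GC corrected, 2 fatty acid members were called and the gap was 0.059. Sterol calls numbered 5 with total counts only, 5 on a TPM-like scale (10 in the fatty acid arm), 5 with a filter of 5 FPKM (gap 0.80), and 4 with limma at each pseudocount (gap 0.52 with 1). Without 1 library in turn, calls ran from 650 to 7579 genes, 0 to 15 sterol and 0 to 12 fatty acid members, and the gap from 0.60 to 0.68. The lowest counts came without a control library, where the spread rests on the overexpression pair, and the highest without overexpression replicate 1, where DHCR7 and SREBF1 reversed to log2 fold changes of 0.25 and 0.31; without replicate 2 these were -0.55 and -0.54. The replicate block gave 9 fatty acid, 10 sterol and 5758 gene calls. Deviations of same-numbered replicates correlated at 0.265, but with 2 pairs the samples share only a number. The gap was 0.71 without the regulators, 0.50 without ACLY and ACAT2, and 0.61 without acyl-CoA synthetase and glycerolipid genes. The cause of these changes was not tested. With DESeq2, RLE factors, filterByExpr, no filter and coding genes only, the gap was 0.57 to 0.59, with 8 to 10 sterol and 3 to 6 fatty acid calls. These fits mostly rescale the same counts, which can hardly move the gap. The corrections with other transcripts and with span and GC, and coding genes only, were added after seeing the data. Tested members had 137 to 4247 counts in a library, and each group had 2 replicates, both of which limit precision.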

Other observations

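Genes of fatty acid oxidation, the reverse of synthesis, were not members. Of 16 tested, 3 rose and 1 fell (edgeR, adjusted p under 0.05), 25% in all against 32.2% of all genes. Their median log2 fold change was 0.28, and 0.12 with the mRNA length correction, and their median mRNA length was 2129.5 nt against 2997.5 nt for all coding genes. With the mRNA length correction 0 passed (edgeR; 3 higher and 1 lower at an unadjusted p under 0.05). The genes below were chosen after their values were seen. ECI1, a mitochondrial enoyl-CoA isomerase, was at 16.0 and 19.3 FPKM in the controls and 29.4 and 41.8 FPKM with overexpression (log2 fold change 1.23, edgeR adjusted p = 0.00813; corrected 0.67, edgeR adjusted p = 0.0858). ECI2, a related isomerase, was at 3.13 and 3.48 FPKM in the controls and 7.92 and 5.59 with overexpression (log2 fold change 1.23, edgeR adjusted p = 0.00634; corrected 0.62, edgeR adjusted p = 0.145). Both passed with length, span and GC corrected (0.64 and 0.60, edgeR adjusted p = 0.00331 and 0.0237). PPARA, a nuclear receptor that switches on oxidation genes, was at 2.10 and 2.05 FPKM in the controls and 1.05 and 0.821 with overexpression (log2 fold change -0.95, edgeR adjusted p = 0.0104; corrected -0.19, edgeR adjusted p = 0.558), and its mRNA has 9965 nt.

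PLIN2, which coats lipid droplets, had 4 and 0 counts in the controls and 0 and 0 with overexpression. Overlap of the exons of PLIN2 with other genes was not examined, so these counts do not show that its mRNA was absent. ABCA1, the exporter of cholesterol, was at 0.631 and 0.617 FPKM in the controls and 0.224 and 0.240 FPKM with overexpression, under the filter. Its mRNA has 10494 nt, and no length-corrected value was computed for it.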
